A study of Mus musculus with 10 samples.

Results

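The mitochondrial ribosomal proteins were followed here as 78 genes, chosen from the 18725 genes of the expression table by symbol: Mrpl or Mrps, a number and at most 1 further letter. They were compared between hypothyroid and euthyroid tissue of the mouse inner ear at postnatal day 10. The hypothyroid group (n = 5 libraries) came from C57BL/6J dams whose drinking water held the antithyroid agents methimazole at 0.05% and sodium perchlorate monohydrate at 1.0%, with sucrose at 5.0%. The euthyroid group (n = 5 libraries) came from C57BL/6J dams given vehicle, whose make-up is not described. Exposure began at embryonic day 17, went on through lactation and ended at postnatal day 10. The tissue was the outer sulcus, the strip of epithelium that holds the root cells, dissected with the spiral ligament beneath it. Each library was polyadenylated RNA of this mixed tissue. Whether the libraries of a group came from separate animals or litters is not given, so p-values measure only the spread between these libraries.

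Mitochondria keep a small genome of their own and translate its few messenger RNAs, all for subunits of the respiratory chain and ATP synthase, on a ribosome of their own. The RNA of that ribosome is made inside mitochondria, but every protein of it is encoded in the nucleus, made in the cytosol and imported. Some of these proteins descend from bacterial ribosomal proteins, and the others are found only in mitochondrial ribosomes. Changes in several genes of human mitochondrial translation cause hearing loss, and thyroid hormone is a known regulator of mitochondrial gene expression in many tissues. MRPS36, unlike its name, is known as a component of the 2-oxoglutarate dehydrogenase complex, and Mrps18a and Mrps30 encode proteins of the large subunit despite their symbols. Of the 78 genes, 51 then belong to the large subunit, 26 to the small subunit and 1, Mrps36, to neither.

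The deposited estimated counts summed to 19298145 to 19407592 in hypothyroid libraries and to 19781921 to 20063961 in euthyroid libraries. The 78 genes held 124 to 1443 counts each in any library, and all 78 passed the filter on low counts, as did 14862 genes in all. A protocol text in the labels speaks of cartilage of the femoral head at a later age, which differs from the tissue and age given for each library. The 6 genes fixed as tissue markers (Slc26a4, Epyc, Coch, Otos, Otor and Kcnj16) were abundant, with summed levels of 7015 to 9584 CPM (counts relative to library size after TMM scaling) in hypothyroid libraries and 15332 to 18151 CPM in euthyroid libraries, and 5 of the 6 were lower. Markers of other cells differed between the same libraries. The 6 bone markers summed to 27.0 to 48.2 CPM in hypothyroid and 1009 to 1546 CPM in euthyroid libraries, and 6 of 6 fell. The 6 macrophage markers summed to 333 to 431 CPM against 220 to 247 CPM, the 6 melanocyte markers to 864 to 1655 CPM against 398 to 606 CPM and the 6 genes of dividing cells to 60.4 to 98.9 CPM against 20.6 to 30.3 CPM, and in each of these lists 6 of 6 rose. Of 5 hair cell markers tested, 1 rose and 4 fell (30.2 to 38.8 CPM against 39.4 to 91.6 CPM over 6 markers, with Slc26a5 at 0 in every hypothyroid library). The neuron markers summed to 43.6 to 57.7 CPM against 25.7 to 36.6 CPM, with 2 higher and 2 lower of 4 tested. The 6 muscle markers summed to 1.96 to 3.28 CPM in hypothyroid and 0.808 to 1.52 CPM in euthyroid libraries, and the 1 of them tested, Tnnt3, rose. Of 6 red cell markers (492 to 710 CPM against 437 to 799 CPM), 1 fell. The part of these cells in the results below was not tested, and in such bulk tissue fewer cells of a type and less RNA per cell cannot be told apart.

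Most mitochondrial ribosomal protein genes differed little between hypothyroid and euthyroid tissue. In edgeR's quasi-likelihood test with TMM scaling between libraries (a trimmed mean of the log ratios), at a Benjamini-Hochberg adjusted p under 0.05, 15 of 78 rose, 28 fell and 35 did not pass. Of all genes tested, 37.7% rose and 34.1% fell, 71.8% in all. The log2 fold changes with TMM, hypothyroid over euthyroid, lay between -0.83 and 0.68, and 58 of the 78 genes differed by 1.2-fold or less. None of the 78 passed the test with a change of at least 2-fold, as 17.2% of all genes tested did. With TMM, only 3 of the 78 differed by at least 1.5-fold: Mrps6, Mrps34 and Mrpl23. These sizes depended on the scaling. With library sizes alone, Mrps6 and Mrps34 changed by -0.56 and -0.47, less than 1.5-fold. Mrpl23, Mrps27 and Mrpl52 then changed by 0.94, 0.67 and 0.61, each more than 1.5-fold. With TMM, the median log2 fold change of the 78 genes was -0.09, against 0.04 over all genes tested. The interquartile range was 0.30, against 0.77. The CPM ranges of the groups did not overlap for 32 of the 78 genes, 13 higher and 19 lower in hypothyroid libraries, against 57.9% of all genes tested.

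**Figure D1:**
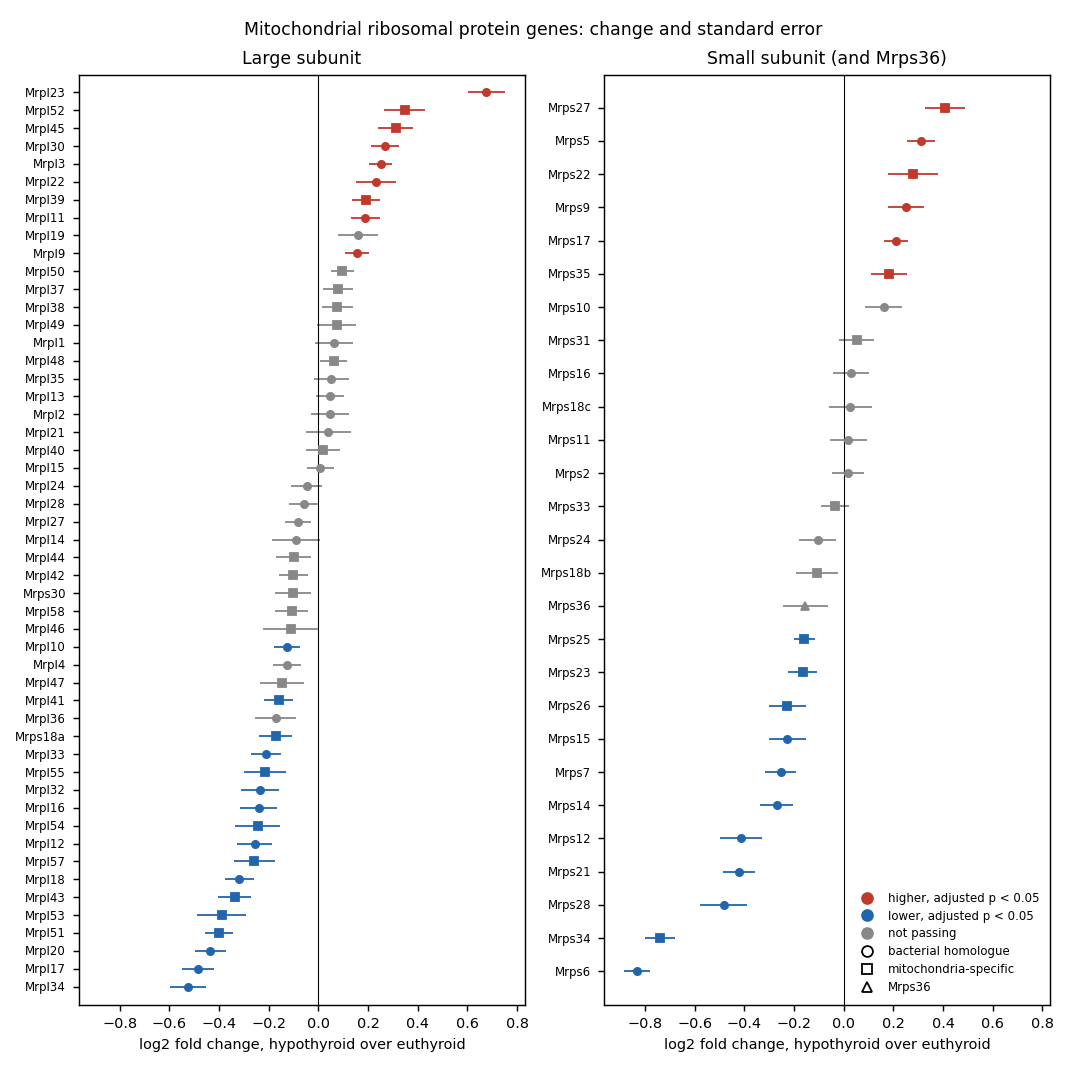
Log2 fold change (x axis, hypothyroid over euthyroid, TMM scaling) of the 78 genes, those of the large subunit on the left and the others on the right. Bars are standard errors, colours the edgeR call, shapes the origin of the protein; values run from -0.83 (Mrps6) to 0.68 (Mrpl23), and most lie within 0.5 of 0.

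How many of these genes were higher and how many lower depended on the scaling between libraries. The TMM factors were 1.07 to 1.12 in hypothyroid and 0.894 to 0.936 in euthyroid libraries. With library sizes alone, 44 of the 78 were higher and 7 lower (58.2% and 19.7% of all genes tested), and the median log2 fold change was 0.17, against 0.30 over all genes. With upper quartile factors, 24 were higher and 14 lower (46.5% and 27.9% of all genes), with a median of 0.02 against 0.15. With relative log expression factors, 14 were higher and 30 lower (36.0% and 35.8%), with a median of -0.12 against 0.01. The median of the 78 genes lay 0.13 below that of all genes; a scaling moves all genes alike, so this distance could not differ between scalings. The calls that did not depend on the scaling were those of 14 genes higher in all 4 fits (36.0% of all genes tested) and of 7 lower in all 4 (19.7% of all genes tested). Some other genes kept their direction in all 4 fits without passing in each, among them Mrps12 (lower) and Mrpl19 (higher). Mrps25 and Mrpl10, named after their values were seen, were called in opposite directions: their log2 fold changes were -0.16 and -0.13 with TMM, and 0.11 and 0.14 with library sizes alone. Of the genes that were lower with TMM, 19 did not pass with library sizes alone, and 27 that did not pass with TMM were higher.

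**Figure D2:**
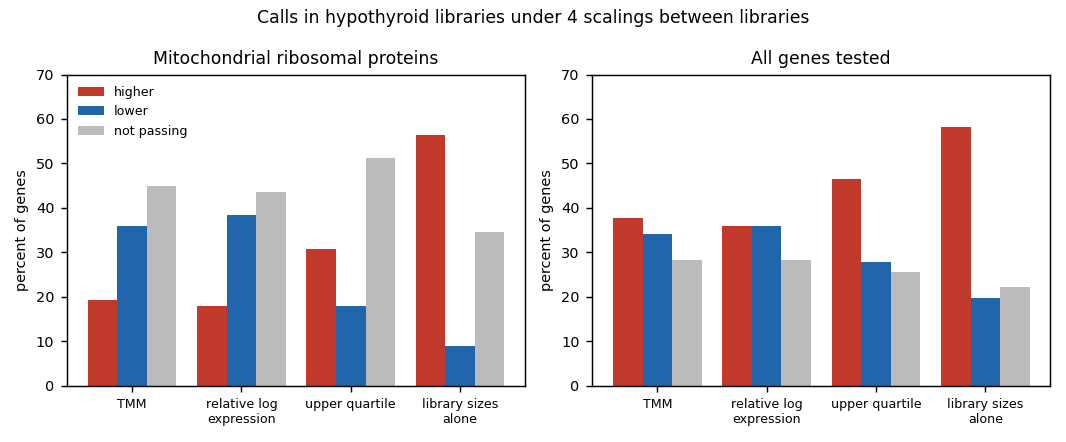
Percent of genes (y axis) called higher, lower or not passing in hypothyroid libraries under 4 scalings (x axis), for the 78 genes on the left and all 14862 genes tested on the right. With TMM, 15 of the 78 were higher and 28 lower; with library sizes alone, 44 were higher and 7 lower.

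As a share of each library's counts, the 78 genes together took 0.192% ± 0.00565 in hypothyroid libraries and 0.168% ± 0.00395 in euthyroid libraries (SD, n = 5 each). On the TMM scale their summed level was 1753 ± 43.8 CPM in hypothyroid and 1847 ± 11.8 CPM in euthyroid libraries. The ranges did not overlap on either scale (0.185% to 0.201% against 0.164% to 0.173%, and 1684 to 1796 CPM against 1834 to 1866 CPM), but the order of the groups was opposite. Ratios within a library need no scaling. Counts of the small subunit genes were 0.484 ± 0.00484 times those of the large subunit genes in hypothyroid libraries and 0.522 ± 0.00868 times in euthyroid libraries (SD, n = 5 each). The ranges, 0.478 to 0.490 and 0.511 to 0.531, did not overlap. Mrps6 alone held 2.47% ± 0.137 of the counts of the 78 genes in hypothyroid libraries and 4.17% ± 0.228 in euthyroid libraries. Without Mrps6 the small to large ratio was 0.447 ± 0.00447 in hypothyroid and 0.458 ± 0.00871 in euthyroid libraries, and the ranges, 0.442 to 0.452 and 0.447 to 0.466, overlapped.

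With TMM, the subunits and the origins of the proteins gave broadly similar shares of calls. Of all genes tested, 37.7% rose and 34.1% fell. With TMM, 9 of 51 large subunit genes rose and 17 fell, with a median log2 fold change of -0.09, and 6 of 26 small subunit genes rose and 11 fell, with a median of -0.07. Of 44 genes with a bacterial homologue, 9 rose and 16 fell (median -0.05), and of 33 found only in mitochondria, 6 rose and 12 fell (median -0.10). With library sizes alone the counts turned in every one of these classes: 30 higher and 3 lower in the large subunit, 14 and 4 in the small subunit, 26 and 6 with a bacterial homologue, 18 and 1 without. Of all genes tested, 58.2% were then higher and 19.7% lower. Whether the classes differed was not tested.

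Mrpl23 had the largest increase of the 78 genes. It encodes a large subunit protein of bacterial origin, whose homologue sits at the exit of the tunnel through which the new protein leaves, and its gene lies at chr7:142532467-142540747 (RefSeq, GRCm38.p6). Its level was 22.5, 23.4, 23.8, 22.8 and 22.0 CPM in hypothyroid libraries, against 16.5, 15.4, 13.5, 12.9 and 13.4 CPM in euthyroid libraries. The lowest hypothyroid library stood well above the highest euthyroid one, and the increase was 1.60-fold (log2 fold change 0.68 with an SE of 0.07; edgeR adjusted p = 9.85e-07). Mrps6 had the largest decrease. It encodes a small subunit protein of bacterial origin, and its gene lies at chr16:92058336-92112227. Its level was 46.0, 41.0, 41.2, 45.4 and 42.8 CPM in hypothyroid libraries, against 74.7, 73.9, 81.4, 81.2 and 74.0 CPM in euthyroid libraries. The groups were far apart with little spread within either, and the decrease was 1.78-fold (log2 fold change -0.83 with an SE of 0.05; edgeR adjusted p = 1.5e-09). The ratio of Mrpl23 to Mrps6 counts within a library, which no scaling touches, was 0.488 to 0.579 in hypothyroid libraries and 0.159 to 0.221 in euthyroid libraries. Both genes were picked for having the largest changes in these data. Their ratio was thus bound to differ between the groups and is a description only.

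Windows of 300 bases around a transcript start of 4 of these genes are shown because they are the 2 called higher and the 2 called lower with the largest changes that had an entry in the promoter table used. Each runs from 250 bases before to 50 bases after a transcription start, on the plus strand, from RefSeq (GRCm38.p6); capitals mark a match to CCGGAAG (the core bound by ETS factors such as GABP, of which Gabpa is a subunit) or to AAGATGGC (the core bound by YY1), on either strand. The windows are chr7:142532782-142533081 (Mrpl23), chr13:99344536-99344835 (Mrps27), chr16:92058086-92058385 (Mrps6) and chr8:71464676-71464975 (Mrpl34). The start used for Mrps6 and Mrpl34 is that of the whole gene span, the one for Mrps27 lies 19 bases inside the span, and the one for Mrpl23 lies 565 bases inside it, so the first bases of the Mrpl23 span are not in its window.
Mrpl23: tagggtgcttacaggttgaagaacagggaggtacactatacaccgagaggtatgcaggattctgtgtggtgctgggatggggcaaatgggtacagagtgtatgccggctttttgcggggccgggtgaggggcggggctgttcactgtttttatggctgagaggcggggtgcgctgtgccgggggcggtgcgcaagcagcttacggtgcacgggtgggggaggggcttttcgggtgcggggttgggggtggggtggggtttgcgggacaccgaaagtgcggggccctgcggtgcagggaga
Mrps27: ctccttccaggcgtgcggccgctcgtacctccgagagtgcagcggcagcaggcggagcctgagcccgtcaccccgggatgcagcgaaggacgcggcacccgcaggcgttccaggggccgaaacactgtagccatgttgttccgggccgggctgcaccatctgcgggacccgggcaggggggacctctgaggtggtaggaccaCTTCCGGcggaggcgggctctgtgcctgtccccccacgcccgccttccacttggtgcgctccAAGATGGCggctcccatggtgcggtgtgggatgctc
Mrps6: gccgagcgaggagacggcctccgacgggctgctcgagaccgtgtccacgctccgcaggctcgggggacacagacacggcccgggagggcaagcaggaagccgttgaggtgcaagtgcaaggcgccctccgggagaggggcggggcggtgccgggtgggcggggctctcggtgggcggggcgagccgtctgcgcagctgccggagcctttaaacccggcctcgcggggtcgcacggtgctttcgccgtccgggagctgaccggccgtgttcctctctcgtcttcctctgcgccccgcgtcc
Mrpl34: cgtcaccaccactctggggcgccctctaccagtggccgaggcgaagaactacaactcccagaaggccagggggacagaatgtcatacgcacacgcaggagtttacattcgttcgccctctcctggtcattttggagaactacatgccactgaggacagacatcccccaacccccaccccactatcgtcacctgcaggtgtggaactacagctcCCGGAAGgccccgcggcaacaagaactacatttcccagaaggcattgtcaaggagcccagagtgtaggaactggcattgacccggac
Mrps27 held an ETS match on the minus strand that began 48 bases before the start and a YY1 match 14 bases after it. Mrpl34 held an ETS match 37 bases before the start. The windows of Mrpl23 and Mrps6, the genes with the largest changes in either direction, held neither set of letters.

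Of the 78 genes, 69 had an entry in that table, with 75 promoters among them. CCGGAAG was found in 34.7% of the 75, against 15.4% of the 15054 promoters of genes tested and 8.86% of all 32851 promoters in the table. AAGATGGC was in 16.0% of the promoters of the 78 genes, against 3.83% of those of genes tested and 2.75% of all. For NRF1, the palindrome searched first, GCGCATGC followed by GC, was in 4.0%, against 1.79% and 0.971%. The shorter core GCGCATGC alone, added after that result was seen, was in 10.7%, against 4.57% and 2.71%. AGGTCA, the hexamer that thyroid hormone receptors and other nuclear receptors bind, was in 14.7%, against 12.6% and 16.3%. Both strands were searched, and of these motifs the NRF1 pair overlap by construction; a match in letters is a description and not a binding site.

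The other members with the largest increases carried smaller changes than Mrpl23. Mrps27, a small subunit protein found only in mitochondria that belongs to the pentatricopeptide repeat family (chr13:99344767-99415562), had 22.6, 19.9, 19.8, 20.4 and 19.1 CPM in hypothyroid libraries, against 17.4, 15.2, 13.0, 15.4 and 15.9 CPM in euthyroid libraries. All 5 hypothyroid libraries were above all 5 euthyroid ones, by 1.33-fold on the fitted mean (log2 fold change 0.41, SE 0.08, edgeR adjusted p = 0.000312). Mrpl52, of the large subunit and found only in mitochondria, had 14.3, 14.2, 13.7, 13.9 and 12.8 CPM in hypothyroid libraries, against 12.2, 10.7, 11.0, 9.07 and 11.3 CPM in euthyroid libraries. The groups did not overlap, but only narrowly (log2 fold change 0.35, SE 0.08, edgeR adjusted p = 0.00169). Mrpl45, whose protein anchors the ribosome to the inner membrane where the new proteins are inserted, had 26.8, 30.4, 26.2, 27.9 and 26.5 CPM in hypothyroid libraries, against 23.4, 24.4, 21.0, 22.5 and 19.7 CPM in euthyroid libraries. Its groups did not overlap either (log2 fold change 0.31, SE 0.07, edgeR adjusted p = 0.000909). The 4 remaining genes of this kind encode proteins of bacterial origin. Mrps5 averaged 34.8 ± 2.03 CPM in hypothyroid and 28.0 ± 1.08 CPM in euthyroid libraries, a log2 fold change of 0.31. Mrpl3, near the centre where peptide bonds form, averaged 48.1 ± 1.52 CPM and 40.4 ± 1.36 CPM (0.25), and Mrpl30 averaged 31.9 ± 1.74 CPM and 26.5 ± 1.24 CPM (0.27). Mrps9 averaged 25.3 ± 2.54 CPM and 21.3 ± 1.11 CPM (0.25; SD, n = 5 each). The edgeR adjusted p of these 4 ranged from 0.000146 (Mrps5) to 0.00637 (Mrps9). All 8 genes were higher under each of the 4 scalings.

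Among the decreases, Mrps34 followed Mrps6. It encodes a small subunit protein found only in mitochondria (chr17:24895120-24896289) and had 20.2, 21.3, 23.5, 22.8 and 19.8 CPM in hypothyroid libraries, against 36.4, 34.2, 35.2, 36.2 and 37.6 CPM in euthyroid libraries. The groups were more than 10 CPM apart at their nearest libraries, and the decrease was 1.67-fold (log2 fold change -0.74 with an SE of 0.06; edgeR adjusted p = 3.31e-08). Mrpl34, a short large subunit protein of bacterial origin (chr8:71464926-71465753), had 9.03, 9.60, 9.40, 10.2 and 9.85 CPM in hypothyroid libraries, against 13.8, 13.9, 14.5, 13.1 and 14.0 CPM in euthyroid libraries. Its groups did not overlap (log2 fold change -0.53, SE 0.07, edgeR adjusted p = 9.69e-06). Mrpl17, also of the large subunit and of bacterial origin (chr7:105803782-105811087), had 30.0, 26.8, 27.8, 33.3 and 26.5 CPM in hypothyroid libraries, against 41.4, 40.0, 38.7, 40.8 and 41.1 CPM in euthyroid libraries. The euthyroid libraries were close together and the hypothyroid ones lower and more spread (log2 fold change -0.48, SE 0.06, edgeR adjusted p = 6.92e-06). The next 4 genes have bacterial homologues. Mrps28 averaged 6.32 ± 0.458 CPM in hypothyroid and 8.84 ± 0.684 CPM in euthyroid libraries (log2 fold change -0.48), the lowest counts of the 8. Mrpl20 changed by -0.43 and Mrps21 by -0.42, the second averaging 21.1 ± 0.396 CPM in hypothyroid and 28.3 ± 2.58 CPM in euthyroid libraries. Mrps12, homologue of a bacterial protein that governs decoding accuracy, had 12.6, 12.03, 12.7, 15.9 and 11.9 CPM in hypothyroid libraries, against 17.4, 16.4, 18.6, 16.9 and 17.5 CPM in euthyroid libraries, with hypothyroid library 4 set apart from the other 4 (log2 fold change -0.41). The edgeR adjusted p of these 4 ranged from 1.79e-05 (Mrpl20) to 0.000487 (Mrps12). With library sizes alone 7 of the 8 still passed as lower, but Mrps12 did not (log2 fold change -0.15, edgeR adjusted p = 0.147).

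**Figure D3:**
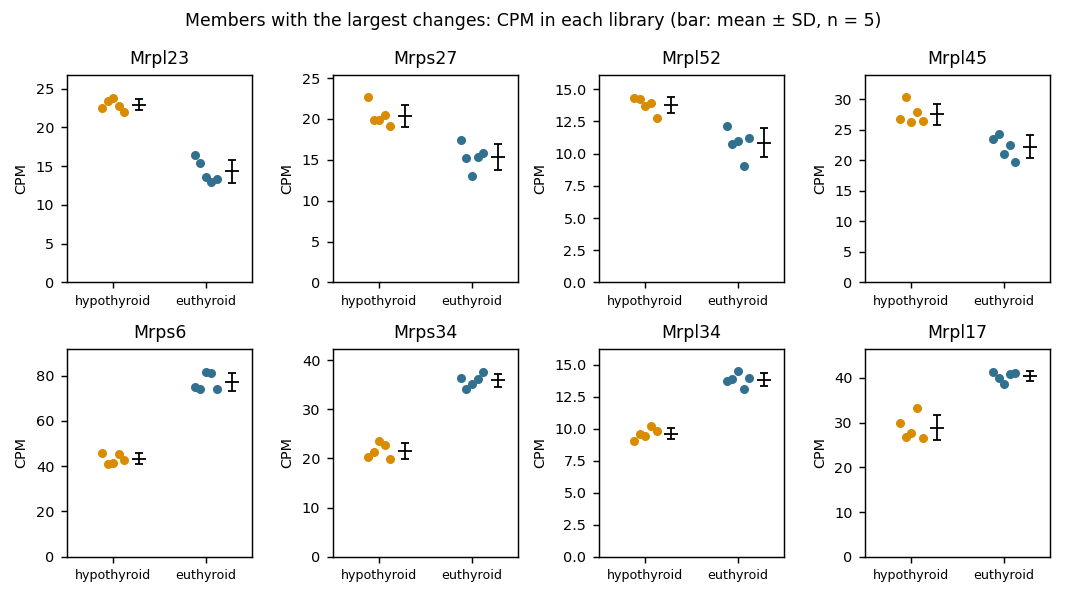
CPM on the TMM scale (y axis) in each hypothyroid and euthyroid library (points) with the mean ± SD (n = 5 each), for 4 genes with large increases in the top panels and 4 with large decreases in the bottom panels. The groups do not overlap in any panel; Mrps6 lies at 41.0 to 46.0 CPM in hypothyroid and 73.9 to 81.4 CPM in euthyroid libraries.

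Several members were examined for their known roles. MRPS7 and MRPS2, proteins of the small subunit, are among those changed in human hearing loss. Mrps7 had 29.4, 28.5, 30.9, 27.6 and 27.4 CPM in hypothyroid libraries, against 37.1, 31.6, 36.9, 33.9 and 31.9 CPM in euthyroid libraries. All hypothyroid libraries were below all euthyroid ones on the TMM scale (log2 fold change -0.25, edgeR adjusted p = 0.00192), but not with library sizes alone, where the change was 0.01 (adjusted p = 0.865). Mrps2 had a log2 fold change of 0.02, with an approximate 95% interval of -0.11 to 0.14. Mrpl12, part of the stalk that binds translation factors, averaged 21.9 ± 1.96 CPM in hypothyroid and 26.1 ± 1.38 CPM in euthyroid libraries (SD, n = 5 each; log2 fold change -0.26, edgeR adjusted p = 0.00392), and 0.01 with library sizes alone. Mrpl32, a large subunit protein cut by a protease of the inner membrane before it is built in, changed by -0.23 (edgeR adjusted p = 0.0138), and by 0.03 with library sizes alone. Of the Mrps18 paralogues, of which Mrps18a and Mrps18b are counted here with the proteins found only in mitochondria and Mrps18c with those that have a bacterial homologue, Mrps18a was lower by a small step (log2 fold change -0.17, edgeR adjusted p = 0.0282; 0.09 with library sizes alone). Mrps18b and Mrps18c did not pass, with changes of -0.11 (approximate 95% interval -0.27 to 0.06) and 0.03 (-0.14 to 0.20). Mrps36 did not pass either, at -0.15 (edgeR adjusted p = 0.136).

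The smallest differences, beside Mrps2, were those of Mrpl15, Mrpl40 and Mrps11. Mrpl15 had a log2 fold change of 0.01 with an approximate 95% interval of -0.10 to 0.11, and Mrpl40 and Mrps11 had 0.02 each. With library sizes alone their log2 fold changes were 0.27 (Mrpl15) and 0.28 (Mrpl40, Mrps11 and Mrps2), and all 4 were called higher.

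Levels between genes were set side by side in the deposited TPM, which allow for length. The 78 genes spanned 8.88 to 197 TPM over the 10 libraries, a 22.1-fold range, and 67 of them lay between 20 and 100 TPM. Their median was 47.6 TPM in hypothyroid and 45.0 TPM in euthyroid libraries. Mrps6 was the most abundant of the 78 in both groups, at 156 ± 10.4 TPM in hypothyroid and 237 ± 8.89 TPM in euthyroid libraries, and Mrps21 came next, at 128 ± 2.76 and 146 ± 11.1 TPM (SD, n = 5 each). Mrpl24 and Mrpl27, both of the large subunit, followed at 118 ± 9.87 and 117 ± 6.17 TPM in hypothyroid libraries and at 103 and 105 TPM in euthyroid libraries, and did not differ from each other beyond their spread. Neither passed the count test with TMM, and both were higher with library sizes alone (0.22 and 0.18). By the mean over 10 libraries, the least abundant were Mrpl17 (11.4 TPM in hypothyroid, 13.7 TPM in euthyroid libraries), Mrpl35 (10.6 and 8.76 TPM) and Mrpl19 (10.1 and 7.70 TPM), all of bacterial origin. In euthyroid libraries Mrpl1, at 12.5 TPM, was below Mrpl17. The order changed little, with a Pearson correlation of 0.96 between the groups' log2 mean TPM over the 78 genes, which share libraries and gene lengths. Mrpl23 moved furthest among the genes with the largest changes: it ranked 11 of 78 in hypothyroid and 32 of 78 in euthyroid libraries. The log2 fold changes had a correlation of -0.15 with the log2 mean level over the same genes.

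**Figure D4:**
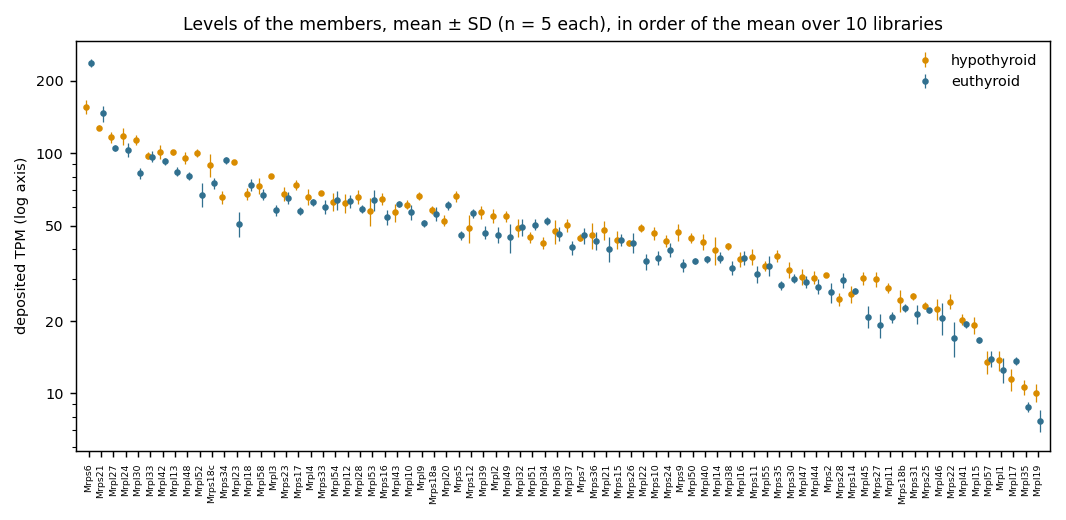
Deposited TPM (y axis, log scale) of the 78 genes (x axis, in order of the mean over 10 libraries), mean ± SD of hypothyroid and euthyroid libraries (n = 5 each). Mrps6 leads in both groups at 156 and 237 TPM, and the lowest, Mrpl19, is at 10.1 and 7.70 TPM.

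With TMM, members and the genes nearest to them moved in mixed directions. For 45 of the 78 genes the nearest tested gene lay within 1000 bases, and the correlation of the log2 fold change of a member and that gene was 0.13 (n = 78 pairs). Of 36 called members whose nearest gene was also called, 15 moved in the same direction. Of all genes tested, 71.8% were called with TMM. Such counts of neighbours are not given here for all genes or for the other scalings, under which directions can change. Mrpl23 lies in the region of Igf2, the fetal growth factor, 110021 bases away, which averaged 1241 ± 67.4 CPM in hypothyroid and 437 ± 38.4 CPM in euthyroid libraries (SD, n = 5 each; log2 fold change 1.51, edgeR adjusted p = 2.12e-11). The nearer neighbours of Mrpl23, Tnnt3 and Lsp1, changed by 2.35 and 0.91. Tnnt3 was scarce: the 6 muscle markers that include it summed to 1.96 to 3.28 CPM in hypothyroid and 0.808 to 1.52 CPM in euthyroid libraries. Beside Mrps34, Eme2 lies 33 bases away and changed by -0.45, and beside Mrpl34, Abhd8 lies 219 bases away and changed by -0.60. No rule set in advance named these neighbours. Each of them moved in the direction of its member, though only 15 of the 36 called pairs did, and shared control was not tested. Exons of 17 of the 78 genes share bases with another protein-coding gene in GENCODE M21, on the same strand for 2, and the counting is not stated to use strand, so reads in those bases cannot be assigned with certainty. Mrps6 is among them: it shares 159 exon bases, on the same strand, with the inositol transporter gene Slc5a3 and 305 with Gm49711, which was not analysed here. Slc5a3 changed by -0.40 (edgeR adjusted p = 0.00357). Among the others, on the opposite strand, Mrpl19 shares 1962 exon bases with Gcfc2 (log2 fold change 0.91) and Mrpl24 shares 594 with Rrnad1 (0.49). Mrps25 shares 3533 with Nr2c2, which did not pass (0.12, edgeR adjusted p = 0.177).

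The other genes of mitochondrial translation were counted from lists of known members. For these lists and those that follow, 37.7% of all genes tested rose and 34.1% fell with TMM. Of 25 assembly factors of the mitochondrial ribosome, 10 rose and 1 fell, with a median log2 fold change of 0.16. Mpv17l2 was the 1 that fell (-0.96, edgeR adjusted p = 1.27e-07), averaging 13.2 ± 1.71 CPM in hypothyroid and 25.8 ± 1.89 CPM in euthyroid libraries (SD, n = 5 each). Of 15 translation factors, 4 rose and 1 fell (median 0.05). Guf1, homologue of a bacterial elongation factor, averaged 102 ± 4.68 CPM in hypothyroid and 57.4 ± 2.54 CPM in euthyroid libraries (log2 fold change 0.83), and Gfm1, the translocation factor, changed by -0.40. Of 20 mitochondrial tRNA synthetases, 11 rose and 2 fell (median 0.29), among them Ears2, which charges the tRNA of glutamate, at 0.55. Of 11 genes of mitochondrial DNA maintenance and transcription, 9 rose and none fell (median 0.44), Twnk, the DNA helicase, by 0.71. The gene of that helicase shares 385 exon bases with Mrpl43 on the opposite strand, which changed by -0.34. Of 5 mitochondrial ribosomal proteins with symbols outside the rule, 2 rose and 1 fell: Gadd45gip1 by 0.24, Ptcd3 by 0.12 and Aurkaip1 by -0.58. With library sizes alone, more genes were higher in each of these 5 lists: 20, 14, 17, 10 and 3. Of all genes tested, 58.2% were then higher and 19.7% lower.

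Among 7 genes of mitochondrial translation in which human changes cause hearing loss, 1 rose and 2 fell with TMM: Hars2 by 0.50, Mrps7 by -0.25 and Lars2 by -0.15, Mrps7 and Lars2 not lower with library sizes alone. Among 9 regulators of mitochondrial biogenesis, 5 rose and 2 fell. Those that fell were Esrra, a nuclear receptor that drives genes of oxidative metabolism (19.2 ± 3.53 CPM in hypothyroid, 36.3 ± 1.61 CPM in euthyroid libraries; log2 fold change -0.92), and its coactivator Ppargc1a (18.1 ± 2.43 CPM and 28.7 ± 2.79 CPM; -0.67). Myc, a regulator of growth and ribosome production, rose by 2.0, at 12.4 ± 3.05 CPM in hypothyroid and 3.09 ± 1.36 CPM in euthyroid libraries. Nrf1 rose by 0.41 and Gabpa by 0.12, while Ppargc1b did not pass (-0.26, edgeR adjusted p = 0.21). Tfam, which packs and transcribes mitochondrial DNA, rose by 0.14, and Polrmt, its RNA polymerase, did not pass (-0.01, edgeR adjusted p = 0.888).

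The 78 genes lay between the proteins of the cytosolic ribosome and those of the respiratory chain. Of 77 cytosolic ribosomal protein genes tested, 76 rose and none fell, with a median log2 fold change of 0.68 (0.94 with library sizes alone). Of 78 nuclear genes of the respiratory chain and ATP synthase tested, none rose and 71 fell, with a median of -0.41 (-0.14 with library sizes alone, where 5 rose and 42 fell). Counts of the mitochondrial ribosomal proteins were 0.0595 ± 0.00272 times those of the cytosolic ones in hypothyroid libraries and 0.10 ± 0.00366 times in euthyroid libraries. They were 0.329 ± 0.0113 times those of the respiratory chain in hypothyroid libraries and 0.259 ± 0.00507 times in euthyroid libraries (SD, n = 5 each). Neither ratio depends on scaling, and the groups did not overlap in either. Genes encoded in mitochondrial DNA were not analysed here.

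**Figure D5:**
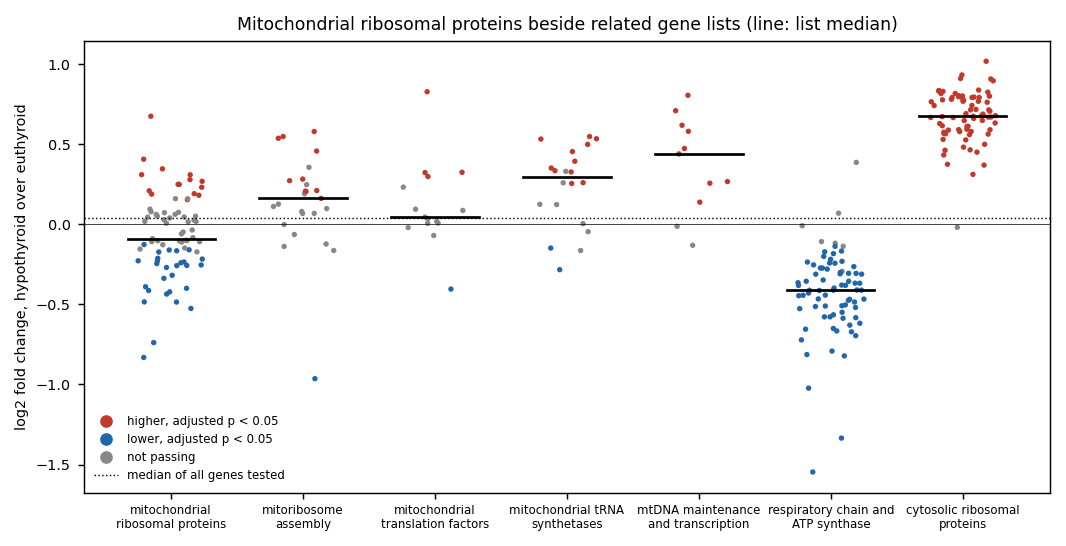
Log2 fold change (y axis, hypothyroid over euthyroid, TMM scaling) of each tested gene in 7 lists (x axis), coloured by the edgeR call, with the list median as a black line and the median of all genes tested dotted. The mitochondrial ribosomal proteins centre on -0.09 (0.17 with library sizes alone), the respiratory chain on -0.41 and the cytosolic ribosomal proteins on 0.68.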

How the data were processed

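Polyadenylated RNA of 10 libraries, 5 hypothyroid and 5 euthyroid, was read as single-end sequences of 50 bases, per the labels' protocols. The submitters' processing notes name HISAT2 2.0.4, Bowtie2 2.2.5, RSEM 1.2.12 and build GRCm38.p6, without their roles. The deposited table gives estimated counts, TPM and FPKM per gene and library, per the file headers. A deposited signal column per library, scaled by the authors, equals estimated counts rounded up and multiplied by 1 factor per library; whole reads came back for 100% of its values, within 0.001.

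Estimated counts were rounded and tested with edgeR 4.0.16 in R 4.3.3 (filterByExpr with a minimum count of 10, TMM, robust quasi-likelihood fit, two-sided, Benjamini-Hochberg over 14862 genes, threshold 0.05). CPM are on the TMM scale. The intervals called approximate 95% intervals are 1.96 SE to either side. This is a normal approximation, somewhat narrower than the edgeR test implies with so few libraries. DESeq2 1.42.0, limma 3.58.1 on log2(value + pseudocount), other scalings, filters and a replicate block served as alternatives, and the read recovery and the shorter NRF1 core were chosen after seeing the data. The edgeR test was also run on simulated counts in which a small set of genes changed, equally up and down. That setting lacks the widespread change seen between these groups, so it does not test the choice of scaling. Depth was 19298145 to 20063961 counts per library, and members held 124 to 1443 counts each.

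Same-numbered libraries had correlations of -0.089 to 0.162 in their deviations from the group means, and the labels tie the numbers to nothing, so the groups were compared unpaired. No libraries were identical. Coordinates are RefSeq's (GRCm38.p6), matched by Entrez ID for 78 of 78 genes. The members and lists were chosen with earlier results of these data known. Members named in full are the 8 with the largest increases and the 8 with the largest decreases among called members whose groups did not overlap, the 4 smallest changes, the 4 highest and 3 lowest by TPM, and 9 with known roles. From other lists they are the 2 largest called changes with at least 5 CPM and 7 regulators. A gene that this rule names is not reported here.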

Additional observations from a re-analysis of the deposited data

Results flagged for a closer look

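In 4 of 62 sets of 5 libraries, 1 library stood apart from the other 4 by Dixon's test, which flags about 1 in 20 by chance. Mrps12 was highest in hypothyroid library 4, at 15.9 CPM, against 11.9 to 12.7 CPM in the other hypothyroid libraries. Mrps11 was lowest in hypothyroid library 2, at 12.4 CPM, against 14.2 to 14.7 CPM. Mrpl19 was lowest in hypothyroid library 3, at 16.6 CPM, against 19.2 to 19.7 CPM, and in euthyroid library 5, at 14.1 CPM, against 17.2 to 18.3 CPM. Without hypothyroid library 3, Mrpl19 passed as higher (log2 fold change 0.21, edgeR adjusted p = 0.0296), which it did not with all libraries (0.16, adjusted p = 0.0844). Without euthyroid library 5, its log2 fold change was 0.0972 (edgeR adjusted p = 0.253). Mrpl19 is also among the genes whose exons share bases with another gene.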

How the results depend on the processing

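Counts of members moved with the scaling; the fits on TPM and FPKM changed the unit, the test and the scaling at once. Higher and lower members numbered 44 and 7 with library sizes alone (median log2 fold change 0.17), 24 and 14 with upper quartile factors (0.0158), 38 and 10 with limma on TPM at a pseudocount of 1 (0.12) or 0.1 (0.13), and 43 and 8 with limma on FPKM (0.15). They numbered 14 and 30 with DESeq2 and with relative log expression factors, 14 and 27 without the filter, 18 and 25 with a minimum count of 100, and 15 and 28 on the recovered reads. With a replicate block they numbered 14 and 24. Leaving out 1 library gave 13 to 16 higher, 23 to 29 lower and medians of -0.0998 to -0.0631. Of all genes tested, 58.2% were higher and 19.7% lower with library sizes alone, and 46.5% and 27.9% with upper quartile factors. With relative log expression factors these shares were 36.0% and 35.8%. Shares over all genes are not given here for the other fits, so their counts of members have no background beside them. Log2 fold changes of named members changed sign as follows. Under the other edgeR scalings all genes were moved nearly alike, and in the other fits the cause was not tested. Library sizes alone gave 0.18 for Mrpl27, 0.22 for Mrpl24, 0.0117 for Mrps7, 0.0921 for Mrps18a, 0.16 for Mrps18b, 0.11 for Mrps36, 0.0096 for Mrpl12 and 0.0307 for Mrpl32. Upper quartile factors gave 0.0271 for Mrpl27, 0.063 for Mrpl24 and 0.0033 for Mrps18b. Relative log expression factors and DESeq2 gave -0.0183 and -0.0183 for Mrpl15, -0.0092 and -0.0095 for Mrps2, -0.0084 and -0.0080 for Mrpl40, -0.0068 and -0.0070 for Mrps11, and -0.0002 in both for Mrps18c. TPM at a pseudocount of 1 or 0.1 gave 0.15 and 0.15 for Mrpl27, 0.18 and 0.19 for Mrpl24, 0.053 and 0.0539 for Mrps18a, 0.094 and 0.10 for Mrps18b, and 0.0678 and 0.0691 for Mrps36. FPKM gave 0.18 for Mrpl27, 0.22 for Mrpl24, 0.0127 for Mrps7, 0.0889 for Mrps18a, 0.12 for Mrps18b, 0.10 for Mrps36, 0.0055 for Mrpl12 and 0.0285 for Mrpl32. Without 1 library, Mrpl15 ranged over -0.0184 to 0.0204, Mrps2 over -0.0298 to 0.0497, Mrpl40 over -0.0181 to 0.0463, Mrps11 over -0.0214 to 0.0613 and Mrps18c over -0.0475 to 0.0610, none of them called in the full set. Mrps18a lost its call in the block (edgeR adjusted p = 0.0539), with a minimum count of 100, and without hypothyroid library 5, euthyroid library 1 or euthyroid library 4 (adjusted p = 0.0733, 0.0645 and 0.0520). Of 310 such values for 31 named members, 15 differed in direction or call. Litter and dissection cannot be told apart from treatment.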
